A study of Mus musculus with 21 samples.

Results

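Chromosome 6 of the mouse was described through its open chromatin, as the ATAC-seq peak summits that lay on it among the 100000 highest-scoring summits of each library. The members were all summits on this chromosome after each list had been ordered by its deposited score. They numbered 153865 of the 2100000 kept summits in 21 libraries, from 5081 in a progenitor library to 11231 in a cell line library. The members were thus chosen by the score of a summit within its own library, and no comparison between groups entered that choice. Chromosome 6 itself was picked for description with its rise in tumors known, so the tests below give the size of differences and do not measure how unusual such a chromosome is.

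The study followed the formation of medulloblastoma, a cerebellar tumor, in a genetically engineered mouse model. Libraries were made with Omni-ATAC, in which a transposase cuts accessible DNA, in 7 groups of 3. Granule neuron progenitors (GNP, titled Ptch1GNP; the genotype beyond that title is not given) came from cerebella at postnatal day 7. Hyperplasia cells (titled PNC) came from cerebella at postnatal day 28. Tumor cells came from tumor-bearing cerebella of unstated age. All 3 primary groups carried the Atoh1-EGFP reporter and were sorted as EGFP-positive, so they were selected for holding EGFP from that reporter. GNP and hyperplasia cells were enriched on a percoll gradient and tumor cells were dissociated with trypsin and DNase, so preparation and stage cannot be told apart. The other libraries were of VDR, a mouse medulloblastoma cell line, either untreated or given control siRNA (siNC), siRNA to Nfia (siNfia) or siRNA to Nfib (siNfib). The line is a single culture history, and nothing in the labels says whether the 3 libraries of any group came from separate animals or cultures. The p-values therefore measure the spread between these libraries, which may be technical.

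Granule neuron progenitors divide in the outer layer of the young cerebellum under Sonic hedgehog, a signal received by Patched and passed on by Smoothened to the Gli factors. Loss of the Patched brake keeps them dividing, and some of these cells form medulloblastoma. Accessible chromatin marks promoters and enhancers that proteins can reach, and a peak summit is the point of highest transposase signal within such a site. Mouse chromosome 6 carries Smo, which encodes Smoothened, Atoh1, the factor that keeps granule progenitors immature, the cyclin gene Ccnd2, the growth signalling genes Braf and Met, and the Hoxa cluster. Nfia and Nfib, the 2 siRNA targets, lie on chromosome 4. Peak lists hold no transcript level, so the knockdown itself was not checked.

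Promoters on chromosome 6 whose open region was present in 3 of 3 libraries of 1 primary stage and 0 of 3 of another are shown first, because they are the sites where a change between stages falls on a start of transcription. Between GNP and tumor, 13 promoters had a region found only in tumor, or 0.697% of the 1865 on the chromosome against 0.354% on all autosomes. Another 9 had a region found only in GNP, 0.483% against 0.944%. The sequences below were taken from RefSeq (GRCm38.p6, the same coordinates as mm10) and run from 250 bases before to 50 bases after the start. They belong to 3 of the 4 highest-scoring cases. Capitals mark the core of the NFI recognition site, TTGGC or its reverse complement GCCAA.
Skap2, minus strand, chr6:52012500-52012799: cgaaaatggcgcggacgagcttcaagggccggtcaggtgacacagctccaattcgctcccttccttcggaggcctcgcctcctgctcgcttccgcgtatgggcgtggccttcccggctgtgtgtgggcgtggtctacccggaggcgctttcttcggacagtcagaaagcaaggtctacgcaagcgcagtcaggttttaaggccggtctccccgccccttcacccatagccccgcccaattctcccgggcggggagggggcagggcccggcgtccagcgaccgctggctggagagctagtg
Tex52, plus strand, chr6:128375260-128375559: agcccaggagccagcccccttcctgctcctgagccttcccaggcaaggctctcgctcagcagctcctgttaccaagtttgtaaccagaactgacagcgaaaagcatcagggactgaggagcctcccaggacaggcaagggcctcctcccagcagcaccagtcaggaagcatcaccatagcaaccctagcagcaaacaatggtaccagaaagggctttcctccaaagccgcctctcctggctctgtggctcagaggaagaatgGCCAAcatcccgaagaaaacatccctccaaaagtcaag
Gm33024, minus strand, chr6:84010829-84011128: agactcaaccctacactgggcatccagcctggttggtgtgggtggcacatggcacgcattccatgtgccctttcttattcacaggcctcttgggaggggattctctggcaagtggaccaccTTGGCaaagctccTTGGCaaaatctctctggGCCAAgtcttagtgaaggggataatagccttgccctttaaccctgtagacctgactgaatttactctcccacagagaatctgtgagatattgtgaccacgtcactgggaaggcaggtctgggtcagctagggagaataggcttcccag
The Skap2 promoter, of a gene for a signalling adaptor, overlapped the region chr6:52012488-52012987, which held a kept summit in 3 of 3 GNP, 2 of 3 hyperplasia and 0 of 3 tumor libraries. None of the 12 cell line libraries had a kept summit there, while the whole list of 1 tumor library held a weaker one. At Tex52, a testis-expressed gene whose start lies inside the body of Foxm1, the region chr6:128375192-128375691 was occupied in 0 of 3 GNP, 3 of 3 hyperplasia and 3 of 3 tumor libraries, and in 1 of the cell line libraries, a siNfia one. The predicted gene Gm33024 starts inside the body of Dysf. Its region chr6:84010527-84011026 was occupied in 0 of 3 GNP, 2 of 3 hyperplasia and 3 of 3 tumor libraries and in all 12 cell line libraries.

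Motifs were searched on both strands of every promoter window. The NFI core TTGGC was present 3 times in the Gm33024 window, 1 time in the Tex52 window and not in the Skap2 window. The core was also absent from the window of Gm32838, the remaining highest-scoring case, whose sequence is not printed. The Gm32838 region was found in tumor and not in GNP, and scored higher than that of Gm33024. The core is short, and 46.7% of 32817 RefSeq promoters held it, with 46.9% of the 1865 on chromosome 6. Among the 13 promoters with a region found in tumor and not in GNP, 61.5% held it. The full NFI palindrome, TTGGC followed after 5 bases by GCCAA and so containing the core, was in 0.0366% of all promoters and in none of the 13. The Gli site GACCACCCA was in 0.253% of all promoters, the Atoh1 E-box CAGATGG in 5.31% and the AP-1 site TGANTCA in 7.81%. Of these, only the AP-1 site occurred among the 13, in 15.4%.

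The lists held 159720 to 279584 summits per library, and read depth is unknown. The score at rank 100000 was 9.26 to 28.9 in the primary libraries, 4.95 to 17.4 in the siRNA libraries and 3.76 to 3.97 in the untreated VDR libraries. In 1 untreated VDR library, 54578 summits shared the score at that rank. Over all chromosomes, the 8 granule lineage markers held 101 to 114 occupied regions in GNP, 85 to 96 in hyperplasia, 95 to 99 in tumor, 37 to 50 in untreated VDR and 64 to 87 in siRNA libraries, with no marker at 0 throughout a group. Markers of microglia and immune cells held 10 to 11, 16 to 18 and 12 to 14 regions in the 3 primary stages, and 40 to 46 in untreated VDR. Fibroblast and mesenchyme markers held 37 to 42, 29 to 34 and 41 to 47, so they were lowest in hyperplasia. Among them is Fbln2, a chromosome 6 gene with 20 to 23, 13 to 16 and 23 to 26 regions. Astrocyte markers held 23 to 25, 25 to 32 and 28 to 29, and oligodendrocyte markers 23 to 30, 25 to 33 and 28 to 31. Markers of Purkinje cells and interneurons held at most 10 regions in any library, with Pcp2 at 0 in every primary library.

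The share of summits on chromosome 6 was higher in tumors than in progenitors or hyperplasia. In the 3 GNP libraries chromosome 6 held 5.17%, 5.18% and 5.19% of the autosomal summits kept. Hyperplasia libraries had 5.25%, 5.23% and 5.37%. Tumor libraries had 7.24%, 6.93% and 6.23%. All 3 tumor values lay above all 6 others, and tumor replicate 3 was the lowest of its group. Chromosome 6 ranked 9 of the 19 autosomes by number of summits in every GNP and hyperplasia library, and 3, 4 and 7 in the tumor libraries.

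**Figure D1:**
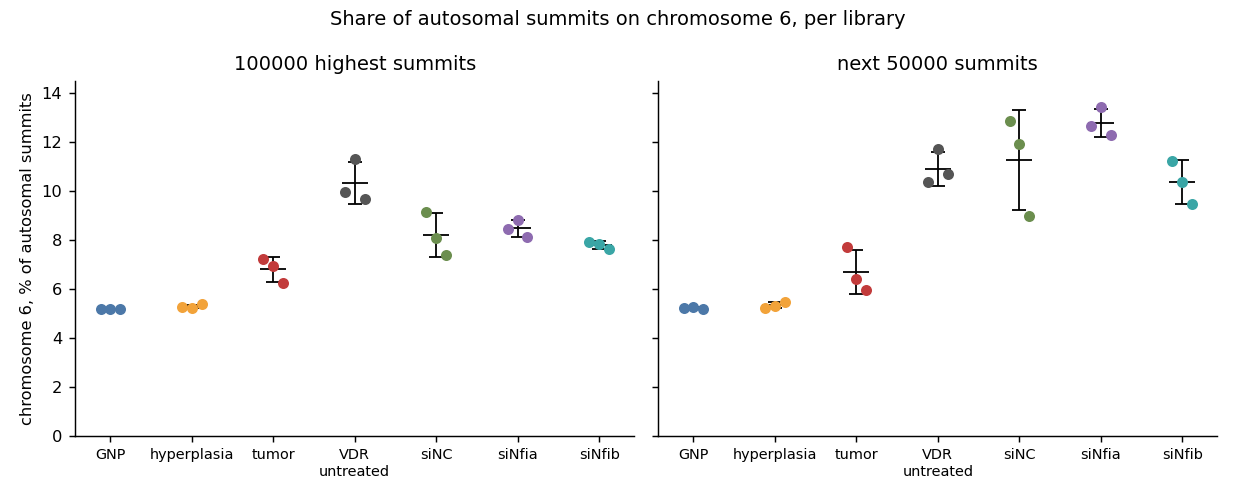
Share of autosomal summits on chromosome 6 in percent (y axis) for each library (points) of the 7 groups (x axis), with group mean and SD (bars, n = 3), for the 100000 highest summits and for the next 50000 of each list. Tumor libraries lie at 6.23% to 7.24% in the left panel, above GNP and hyperplasia at 5.17% to 5.37%, and cell line libraries lie at 7.38% to 11.3%.

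The change was tested with limma on the log2 ratio of summits on a chromosome to those on the other autosomes, adjusted over the 19. Between tumor and GNP the ratio for chromosome 6 rose by 0.41 (SE 0.047, adjusted p = 0.00018). Between tumor and hyperplasia it rose by 0.38 (SE 0.047, adjusted p = 0.00033). In both comparisons this was the largest of the 19 changes. Of the 19 autosomes, 7 (36.8%) passed the test between tumor and GNP and 10 (52.6%) between tumor and hyperplasia. The other 18 changed far less: between tumor and GNP they lay from -0.067 for chromosome 19 to 0.016 for chromosome 18, and since shares sum to a whole, a rise of 1 chromosome lowers the rest. Between hyperplasia and GNP the ratio differed by 0.03 (SE 0.047, adjusted p = 0.692), and 2 of the 19 autosomes (10.5%) passed the test. That SE is shared by the 3 stages, whose percentages had SDs of 0.01 in GNP, 0.075 in hyperplasia and 0.52 in tumor. Every hyperplasia library lay above every GNP library, by a small amount. An exact permutation test over all assignments of the 9 primary libraries to the 3 stages gave p = 0.00357 for chromosome 6, the smallest that the design allows, and 0.0339 after adjustment over the 19. Chromosome 19 reached the same p. Without GNP replicate 1 or without GNP replicate 3 the adjusted value was 0.0679.

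**Figure D2:**
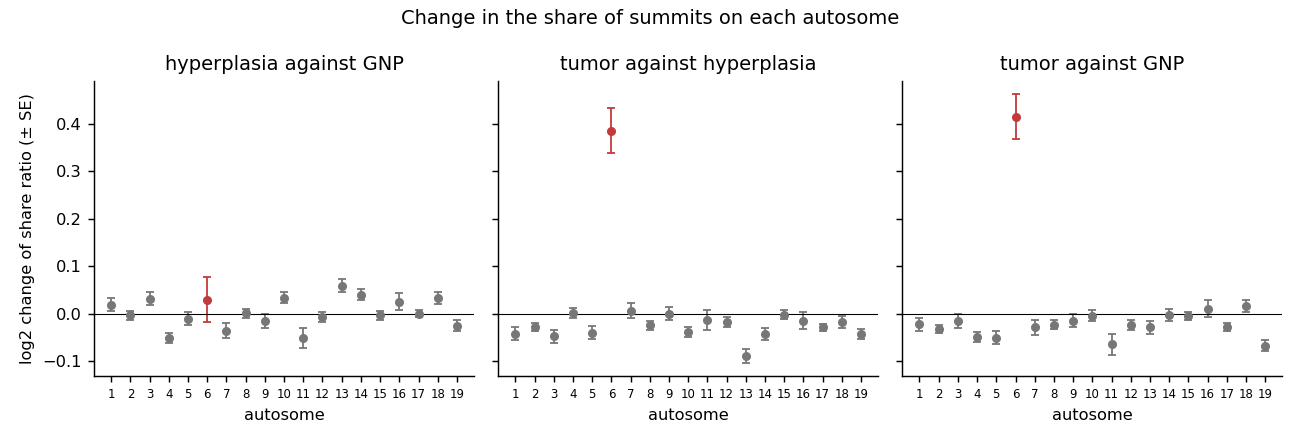
Change in the log2 ratio of summits on an autosome to those on all others (y axis; points with SE bars from limma, n = 3 libraries per group) for the 19 autosomes (x axis) in 3 comparisons. Chromosome 6, in red, stands at 0.03, 0.38 and 0.41, and no other autosome lies above 0.1.

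Summits just below the cutoff gave a value that the choice of members had not used. Among the next 50000 summits of each list, chromosome 6 held 5.21%, 5.25% and 5.16% in GNP, 5.23%, 5.32% and 5.48% in hyperplasia, and 7.72%, 6.42% and 5.95% in tumor. All 3 tumor libraries were again above the other 6. The log2 ratio rose by 0.38 between tumor and GNP (SE 0.076, adjusted p = 0.00918), where 26.3% of the autosomes passed the test. Between tumor and hyperplasia it rose by 0.34 (SE 0.076, adjusted p = 0.0204), where chromosome 6 was the only autosome to pass (5.26%). That second call was lost without any 1 of the hyperplasia libraries, with adjusted p of 0.117, 0.101 and 0.0575 without replicates 1, 2 and 3. Between hyperplasia and GNP the difference was 0.04 (adjusted p = 0.641), and 10.5% of autosomes passed. Here the libraries of these groups overlapped, and the SE is again shared by all stages.

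The share in tumor was highest among the strongest summits. Of the 10000 highest, chromosome 6 held 4.60% to 4.82% in GNP and 4.69% to 5.04% in hyperplasia. Tumor libraries had 9.44%, 9.75% and 7.08% there. Between ranks 10000 and 100000 the tumor values lay between 6.10% and 7.29%. In the siRNA libraries the share followed another course. It was 10.2% to 11.1% in the top 10000, lay between 6.74% and 7.37% at ranks 25000 to 50000, and was 8.96% to 13.4% in the next 50000 after the cutoff.

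Sites that were open at every stage also stood higher in tumors. Regions of 500 bases that held a kept summit in all 9 primary libraries numbered 39526, of which 2178 lay on chromosome 6. Each was ranked by score within its library among these regions, on a scale where 100 is the strongest. The mean percentile of the chromosome 6 sites was 46.4, 46.5 and 46.0 in GNP, 46.6, 47.0 and 48.1 in hyperplasia, and 62.1, 62.5 and 55.2 in tumor. The tumor libraries were above all others. Between tumor and GNP the mean percentile rose by 13.6 (SE 1.59, limma adjusted p = 0.00019), and between tumor and hyperplasia by 12.7 (SE 1.59, adjusted p = 0.000346). In each, 47.4% of the autosomes passed, and the other 8 of them were lower in tumor. Between hyperplasia and GNP the difference was 0.949 (SE 1.59, adjusted p = 0.809), and 5.26% of autosomes passed. That SE too is shared by all stages, and every hyperplasia library lay above every GNP library.

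Site by site, 84.0% of the chromosome 6 sites had a higher mean percentile in tumor than in GNP, against 42.7% on the other autosomes. In all 3 tumor libraries above all 3 GNP libraries were 52.6% of the chromosome 6 sites, where 19% of all such sites were; the reverse held for 4.68%, where 20.8% of all were. Sites within 1 kb of a gene end, which include promoters, and sites farther away were both higher in tumor; the difference between the 2 kinds was not tested. On chromosome 6 their mean percentile was 54.5 to 55.7 in GNP and 67.6, 67.8 and 59.5 in tumor. Sites farther away stood at 41.4 to 42.6 in GNP and 59.5, 60.0 and 53.2 in tumor. On the other autosomes the sites near gene ends were at 58.6 to 60.3 in GNP and 54.5 to 56.3 in tumor, and those farther away at 45.1 to 45.9 and 45.6 to 47.2.

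**Figure D3:**
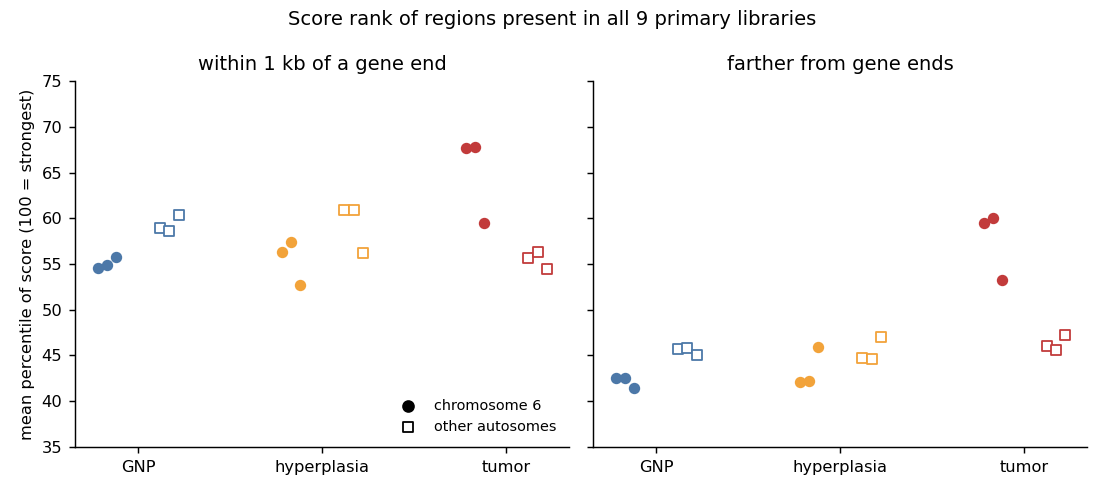
Mean percentile of score (y axis; 100 is the strongest) of regions occupied in all 9 primary libraries, for each library (points) by stage (x axis), near gene ends and away from them; filled circles are chromosome 6 and open squares the other autosomes. Chromosome 6 lies under the other autosomes in GNP and above them in every tumor library.

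A smaller part of the chromosome 6 summits lay near gene ends in tumor than in GNP, a difference that was not tested. Of the summits on chromosome 6, those at most 1 kb from a gene end were 31.5%, 31.0% and 32.4% in GNP and 25.9%, 25.9% and 26.8% in tumor. Hyperplasia lay between, at 29.6% ± 1.41 (SD, n = 3). On the other autosomes the values were 31.7% ± 0.457 in GNP, 30.0% ± 1.46 in hyperplasia and 29.5% ± 0.666 in tumor. In the siRNA libraries the chromosome's share of summits near gene ends was steady at 6.23% to 6.59%, while its share of summits away from them ran from 7.91% to 10.2%. The lists hold no measure of DNA copy number, so more copies of the chromosome and more open chromatin per copy cannot be told apart. In these bulk samples, a site open in more cells and a site more open in each cell cannot be told apart either.

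The rise in tumor ran along the whole chromosome. Of 491 windows of 5 Mb tested on the autosomes, 30 lay on chromosome 6. Between tumor and GNP all 30 rose (limma-trend on log2 of summits plus 1, adjusted p under 0.05), where 17.1% of all windows did, and none fell, where 14.1% of all windows did. In 28 of the 30 every tumor library was above every GNP library, against 22.2% of all windows. The median change over the 30 was 0.38 on the log2 scale, beside -0.0063 over all windows. Compared with hyperplasia, all 30 rose again, where 7.54% of all windows did, and none fell, where 6.72% did, with a median of 0.36. When whole lists of unequal length were used, 9 windows rose between tumor and GNP and none passed between tumor and hyperplasia.

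The first window, chr6:1-5000000, changed most. It had the fewest GNP summits of the windows on the chromosome, and its part chr6:1-3000000 held none in any library. It held 21, 23 and 21 summits in GNP, 30, 27 and 30 in hyperplasia and 50, 42 and 35 in tumor. Its log2 change from GNP to tumor was 0.92 (SE 0.13). The fourth window, chr6:15000001-20000000, which contains the caveolin gene Cav1, held 66, 74 and 68 summits in GNP, 96, 98 and 99 in hyperplasia and 131, 118 and 108 in tumor. That was a change of 0.77 (SE 0.071). In the second, chr6:5000001-10000000, counts went from 117, 117 and 112 in GNP through 150, 149 and 161 in hyperplasia to 198, 179 and 168 in tumor, a change of 0.65 (SE 0.056). In each of these 3 windows the stages did not overlap. They were picked as the largest changes from GNP to tumor, and the same GNP counts enter the comparison with hyperplasia.

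These 3 windows had already risen in hyperplasia. In all, 7 of the 30 windows rose between GNP and hyperplasia, where 18.7% of all windows did, and 2 fell, where 8.15% did. The 7 were the first 4 of the chromosome and those at 40 to 45, 65 to 70 and 135 to 140 Mb. Over the 30 windows the median change was 0.03. The smallest rise from GNP to tumor was at chr6:130000001-135000000, with 96, 88 and 90 summits in GNP and 117, 113 and 89 in tumor, where the groups overlapped through tumor replicate 3. Against the GNP mean, tumor replicates 1, 2 and 3 were higher in 30, 30 and 28 windows, with medians of 0.48, 0.43 and 0.24.

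**Figure D4:**
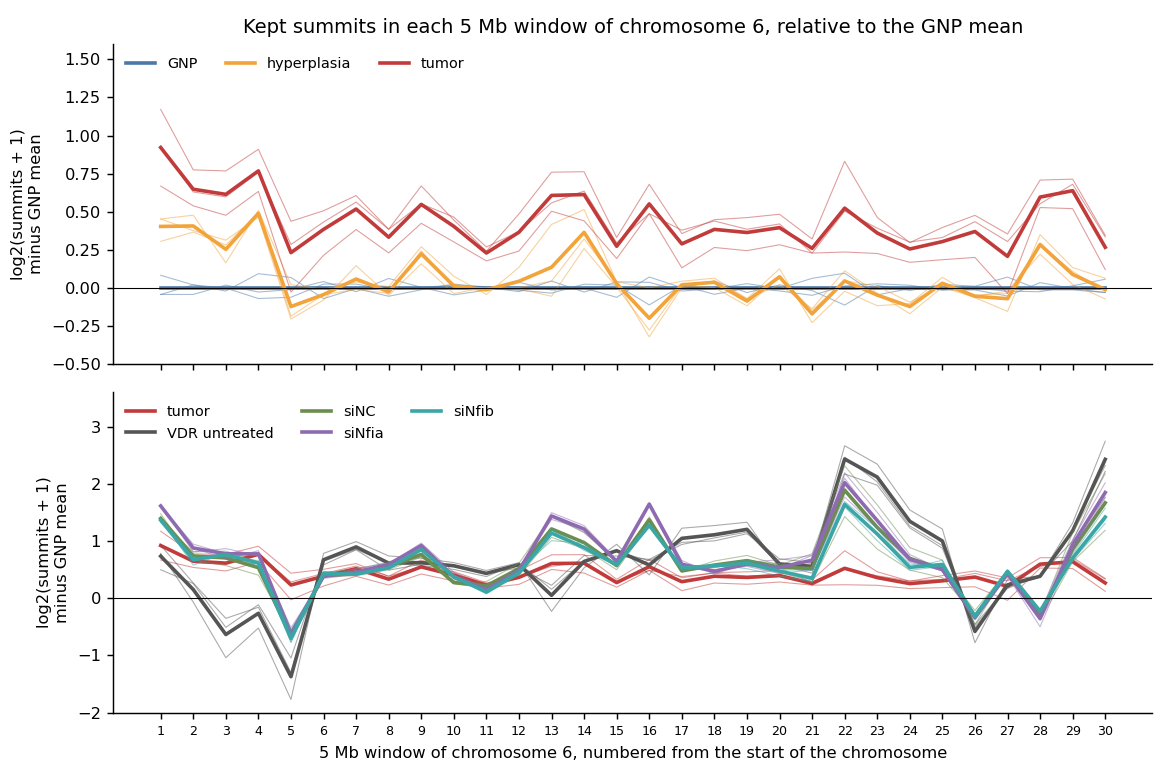
Log2 of kept summits plus 1 minus the GNP mean (y axis) in the 30 windows of 5 Mb along chromosome 6 (x axis, window number), thin lines for libraries and thick lines for group means. Every tumor mean lies above 0 in the upper panel. In the lower panel every cell line group is highest at windows 22 and 30 and falls under 0 at windows 5 and 26. Some of these groups also fall under 0 elsewhere.

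Single regions on chromosome 6 were gained more often than lost. A region was counted as gained where 3 of 3 libraries of the later group and 0 of 3 of the earlier one held a kept summit. Between GNP and tumor 536 regions of 6129 on chromosome 6 were gained and 126 were lost. That is 8.75% gained, where 4.74% of all autosomal regions were, and 2.06% lost, where 4.38% of all were. The other autosomes ranged from 3.85% to 5.29% gained. Between hyperplasia and tumor 276 were gained and 52 lost, or 4.41% and 0.832%, against 1.83% and 2.04% of all regions. Chromosome 6 supplied 14.8% of the gained autosomal regions in that comparison. Between GNP and hyperplasia 288 were gained and 238 lost, 5.19% and 4.29% against 4.77% and 4.45% of all. Of the 536 regions gained from GNP to tumor, 52.2% had a weaker summit, outside the 100000 highest, in the whole list of all 3 GNP libraries. Another 11.2% had none in any of them. Hyperplasia libraries held 53.5% ± 6.73 (SD, n = 3) of these 536 regions and siNC libraries 37.1% ± 1.63. For regions gained on the other autosomes these were 65.2% ± 4.67 and 27.9% ± 1.48.

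The highest-scoring gained region lay in the body of Vwf, the gene for a clotting factor of endothelial cells, at chr6:125597833-125598332. It was occupied in 0 of 3 GNP, 3 of 3 hyperplasia and 3 of 3 tumor libraries, and each of the 3 GNP libraries had a weaker summit there. The next lay 14759 bp from Hpgds, a prostaglandin D synthase gene, at chr6:65159490-65159989, and was occupied in every library outside GNP, with weaker summits in all 3 GNP libraries. The third lay 18950 bp from Tril, a modulator of Toll-like receptor signalling, at chr6:53839525-53840024, with weaker summits in 2 of the 3. Besides the Skap2 promoter, the highest-scoring lost regions lay in Prickle2, a planar polarity gene, at chr6:92506239-92506738, and 50 bp from Igf2bp3, an RNA-binding protein gene, at chr6:49215269-49215768. The Prickle2 region was occupied in 3 GNP, 2 hyperplasia and 0 tumor libraries and again in 2 siNC and 3 siNfib libraries. The Igf2bp3 region was occupied in 3 GNP libraries, 1 hyperplasia library and no other. In the whole lists, 2 of the 3 tumor libraries had a weaker summit at the Igf2bp3 region, and 2 of the 3 at the Prickle2 region.

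Among genes, those that passed the test were all higher in tumor. Kept summits were assigned to 500-base regions, and regions to the smallest gene body around them or else to the nearest gene within 100 kb. Of 1126 protein-coding genes on chromosome 6, 394 passed the filter of a mean of 3 occupied regions over the primary libraries. From GNP to tumor 82 of them rose (limma-trend, adjusted p under 0.05), where 5.67% of all 6827 genes did, and none fell, where 3.47% did. The median change over the 394 was 0.27 on the log2 scale of regions plus 1, beside 0 over all genes tested. From hyperplasia to tumor 29 rose, where 1.16% of all genes did, and none fell, where 1.16% did. When genes were centred on their own chromosome's median in each library, an alternative added after the data were seen, 17 rose and 19 fell from GNP to tumor, and 2 passed from hyperplasia to tumor. With whole lists 6 passed from GNP to tumor and none from hyperplasia to tumor. The 82 became 52, 41 and 44 without GNP replicates 1, 2 and 3, and 49 and 43 without tumor replicates 1 and 2. The 29 became 16 without hyperplasia replicate 1, and 14 and 13 without tumor replicates 1 and 2.

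Foxp2, a forkhead transcription factor gene at chr6:14901349-15441977, gave the clearest gene-level change with many regions. It had 7, 9 and 9 occupied regions in GNP, 18, 19 and 19 in hyperplasia and 19, 21 and 17 in tumor. GNP lay below both later stages in every library. The log2 change was 1.08 from GNP to hyperplasia (SE 0.107, adjusted p = 0.00273) and 1.10 from GNP to tumor (SE 0.107, adjusted p = 0.00281). Untreated VDR had 6, 3 and 4 regions and siNC 14, 12 and 11. Hpgds, at chr6:65117293-65144981, had 0 in all 3 GNP libraries, 5, 4 and 6 in hyperplasia and 6, 4 and 5 in tumor and 9, 8 and 6 in siNC. With GNP at 0 no fold is given; the adjusted p was 0.000178 for hyperplasia and 0.000251 for tumor. The zeros hold only among the 100000 highest summits: with whole lists the differences did not pass (adjusted p = 0.362 and 0.18). Genes with the largest rises from GNP to tumor included Eif4a3l1, a copy of a splicing factor gene whose reads may be shared with its relatives, with 1, 1 and 2 against 5, 6 and 6 regions. Lmo3, a LIM-only cofactor, went from 3, 2 and 1 to 6, 6 and 5, and the autophagy gene Eva1a from 2, 2 and 2 to 6, 5 and 5.

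**Figure D5:**
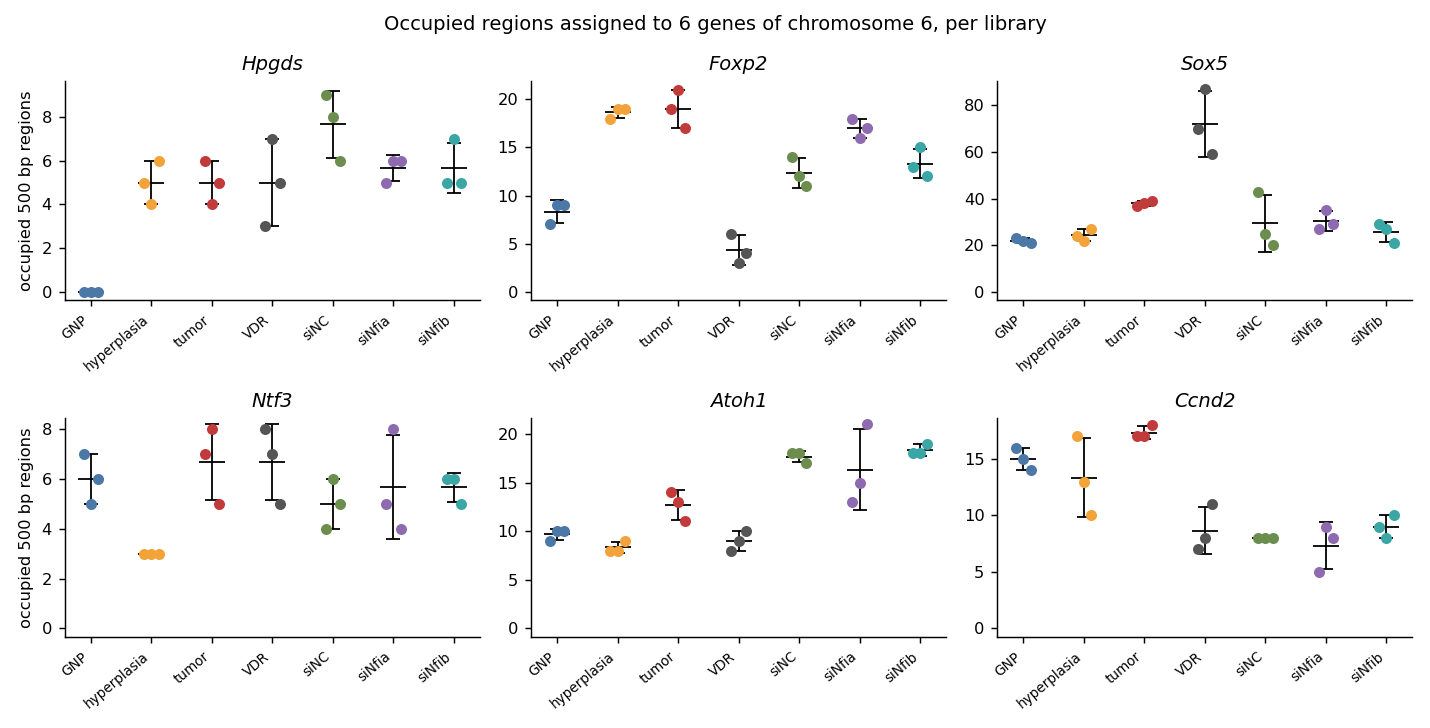
Occupied 500 bp regions (y axis) assigned to 6 genes of chromosome 6 in each library (points; bars give mean and SD, n = 3) of the 7 groups (x axis). Hpgds is at 0 in GNP alone, Foxp2 is at 7 to 9 in GNP and 17 to 21 in hyperplasia and tumor, and Ntf3 is at 3 in every hyperplasia library.

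Sox5, an SRY-box factor of neural precursors, rose at the last step. It had 23, 22 and 21 regions in GNP, 24, 22 and 27 in hyperplasia and 37, 38 and 39 in tumor, a log2 change of 0.63 from hyperplasia (SE 0.072, adjusted p = 0.0116). The synaptic genes Iqsec3 and Lrrtm1 had the largest rises from hyperplasia to tumor. Iqsec3, an exchange factor at inhibitory synapses, had 3, 4 and 4 regions in hyperplasia and 9, 7 and 8 in tumor. Lrrtm1, a synaptic adhesion gene, had 3, 2 and 2 against 6, 5 and 5. Lhfpl4, a GABA receptor partner, had 2, 2 and 2 against 4, 5 and 5, and the leucine-rich repeat gene Lrrn1 7, 6 and 9 against 15, 14 and 13.

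Some genes fell in hyperplasia and rose from there to tumor. They numbered 10, a group formed after the values were seen, and made up 2.54% of the genes tested on the chromosome, against 0.395% of all. Both steps share the hyperplasia libraries, so a low hyperplasia value enters both. The 4 fibroblast and mesenchyme markers together were also lowest in hyperplasia. Fbln2 is 1 of these markers and also 1 of the 10 genes, so the 2 statements rest partly on the same counts. The part of such cells in these values was not tested. The test from GNP to tumor passed for 2 of the 10. Ntf3, which encodes the growth factor neurotrophin 3, had 7, 5 and 6 regions in GNP, 3, 3 and 3 in hyperplasia and 7, 8 and 5 in tumor. Its log2 change was -0.80 into hyperplasia (SE 0.16, adjusted p = 0.0278) and 0.92 from hyperplasia to tumor (SE 0.16, adjusted p = 0.045). The first call was lost without GNP replicate 1 or 3 or any 1 hyperplasia library (adjusted p = 0.0672 to 0.0823), and the second without any 1 hyperplasia library or tumor replicate 1 or 2 (0.0758 to 0.101). Both were lost with whole lists, with the replicate block and with ties in file order. The Ras exchange factor gene Rasgef1a had 12, 14 and 12, then 8, 7 and 9, then 16, 14 and 15 regions. Fbln2, a matrix fibulin gene, had 22, 23 and 20, then 13, 16 and 14, then 25, 26 and 23. Gpr37, an orphan receptor gene, followed with 5, 4 and 4, then 3, 3 and 2, then 5, 5 and 5. Lhfpl4, Ghrhr, Iqsec1 and Ldhb were also in the group, Ldhb with changes of 1 region. With whole lists the rise from hyperplasia to tumor changed sign for Lhfpl4, at -0.057, and Gpr37, at -0.074. Between GNP and hyperplasia 30 of the 394 genes rose, where 6.37% of all genes did, and 20 fell, where 4.82% did. The 50 calls became 28, 22 and 21 without GNP replicates 1, 2 and 3, and 31 without hyperplasia replicate 1 or 2. The potassium channel gene Kcna1 fell most, from 6, 7 and 6 to 2, 3 and 4 regions, and the collagen gene Col28a1 rose from 2, 2 and 2 to 9, 9 and 6.

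Counts for gene lists below stand against 5.67% of all genes and 20.8% of those on chromosome 6 that rose from GNP to tumor, and against a median of 0.27 over the chromosome. The list of Hedgehog and granule cell genes, which includes Smo, Atoh1, Ccnd2, Neurod6, Ptprz1 and Ptn, was drawn up, like the others, with earlier results of these data known. Of its 7 members 2 rose from GNP to tumor and all 7 values were above 0, as were 79.7% of values on the chromosome; the median was 0.48. Ptprz1, a receptor phosphatase of neural precursors, had 2, 2 and 2 regions in GNP and 4, 4 and 4 in tumor. Its ligand gene Ptn had 11, 12 and 11 against 16, 15 and 14. Atoh1 had 9, 10 and 10 regions in GNP, 8, 8 and 9 in hyperplasia and 14, 13 and 11 in tumor. It passed the test from hyperplasia to tumor (log2 change 0.55, adjusted p = 0.043) and not from GNP to tumor (0.35, adjusted p = 0.0591). Smo had 4, 4 and 4 regions in GNP and 6, 10 and 4 in tumor, which did not pass (adjusted p = 0.243).

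Growth signalling and cancer genes numbered 17, of which 12 were tested. From GNP to tumor none passed with limma-trend, with a median of 0.13. Ntf3 was the only member to pass in either step through hyperplasia. Cdkn1b, which encodes the p27 inhibitor of cyclin-dependent kinases, had 11, 10 and 11 regions in GNP and 11, 12 and 9 in tumor. Of 16 replication and chromatin genes 10 were tested and 1, the splicing regulator Tra2a, rose from GNP to tumor, with 5, 5 and 5 regions against 7, 7 and 7. Of 18 transcription factors 12 were tested and 5 rose: Foxp1, Foxp2, Sox5, Creb5 and Lmo3. The Hoxa cluster with its neighbour Evx1 has 12 genes, and none of them reached the filter in any fit.

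Synapse, adhesion and channel genes were the largest list. Of 30 members 27 were tested, 7 rose from GNP to tumor and 23 had values above 0, with a median of 0.35. They included Chl1, Cntnap2, Ctnna2, Magi1, Nxph1 and Cacna1c. Cntnap2, an axonal adhesion gene, had 20, 22 and 23 regions in GNP and 41, 35 and 33 in tumor. Ctnna2, a neuronal catenin gene, had 24, 24 and 21 against 32, 31 and 32. Of 5 axon guidance genes, Plxnd1, a semaphorin receptor gene, rose with 10, 10 and 8 regions against 18, 15 and 14.

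Of the 3 vascular markers on the chromosome 2 rose from GNP to tumor. Cav1, the caveolin gene, had 3, 2 and 2 regions in GNP and 6, 6 and 5 in tumor, and Abcc9, a potassium channel subunit gene of mural cells, had 3, 3 and 4 against 10, 9 and 5. Both passed the test, but with whole lists Cav1 changed sign, at -0.11. Vwf, with 8, 6 and 9 against 10, 9 and 11, did not pass (adjusted p = 0.157). The 6 endothelial and mural markers together held 22 to 27 occupied regions in GNP, 26 to 29 in hyperplasia and 32 to 35 in tumor. Cldn5, a tight junction gene of brain endothelium, was the only 1 of the 6 markers at 0 in all 3 tumor libraries. It was also at 0 in every siNC and siNfia library, and such a 0 counts only kept summits. Of the 6 markers 3 lie on chromosome 6, and the sums include the counts of Cav1, Abcc9 and Vwf given above. By themselves the sums therefore do not show a rise of the markers on other chromosomes. The part of other cell types in the gene values was not tested.

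The VDR cell line carried a still larger share of its summits on chromosome 6, with another pattern along it. Untreated libraries had 9.96%, 11.3% and 9.69%, siNC 9.15%, 8.09% and 7.38%, siNfia 8.47%, 8.83% and 8.14%, and siNfib 7.94%, 7.83% and 7.64%. All 12 were above all 3 tumor libraries. Compared with tumor, the log2 ratio rose by 0.29 in siNC (SE 0.07, adjusted p = 0.000805, fit over 21 libraries) and by 0.66 in untreated VDR (SE 0.07, adjusted p = 7.69e-09). Most autosomes changed here: 89.5% and 100% passed, and chromosome 6 ranked 7 and 12 of 19 by size of change. The score at rank 100000 moved with the share in siNC, at 4.95, 5.96 and 9.61 in replicates 1, 2 and 3. With signal strength as a covariate the siNC value was 0.20 (adjusted p = 0.0483), with the 50000 highest summits 0.16 and with whole lists 0.64.

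Much of that excess lay in 3 windows, chosen here after their values were seen. They were chr6:105000001-110000000, chr6:110000001-115000000 and chr6:145000001-150000000. The last held 208, 208 and 221 summits in GNP, 270, 268 and 231 in tumor, 1064, 1429 and 992 in untreated VDR and 964, 663 and 485 in siNC. Together they held 10.9% ± 0.228 (SD, n = 3) of chromosome 6 summits in GNP and 10.6% ± 0.285 in tumor. In untreated VDR they held 26.7% ± 2.20, in siNC 20.1% ± 3.97, in siNfia 21.2% ± 1.35 and in siNfib 18.2% ± 1.02. Without them the siNC change against tumor was 0.13 (adjusted p = 0.0271) and that of untreated VDR 0.37 (adjusted p = 4.75e-07), while the tumor change against GNP was 0.42 (adjusted p = 0.000139).

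Between tumor and siNC 19 of the 30 windows rose, where 26.6% of all 488 windows did, and 5 fell, where 39.1% did. The last window of the chromosome rose by 1.40 (SE 0.16), and the other two dense ones by 1.36 (SE 0.16) and 0.88 (SE 0.12). The largest falls were at 135 to 140 Mb, with a log2 change of -0.90 (SE 0.07), at 20 to 25 Mb with -0.89 (SE 0.14) and at 125 to 130 Mb with -0.69 (SE 0.074). In 1 Mb steps, chr6:149000001-150000000 held 26, 25 and 23 summits in tumor and 205, 121 and 73 in siNC. At chr6:23000001-24000000, inside and beside Cadps2, tumor libraries had 27, 25 and 18 and siNC 4, 1 and 1.

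Among regions, 468 were gained (4.67%) and 848 lost (8.47%) from tumor to siNC, where 4.42% and 10.3% of all were.

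Genes followed those windows. Between tumor and siNC 132 of 464 genes on chromosome 6 rose, where 16.5% of all 6735 did, and 60 fell, where 20.7% did. Of the 8 largest rises 6 lay in the last window: Dennd5b, Sinhcaf, Resf1, Ipo8, Smco2 and Ints13. Dennd5b, a regulator of Rab proteins, had 4, 4 and 2 regions in tumor and 42, 31 and 17 in siNC, a log2 change of 2.79 (SE 0.26). Sinhcaf, a subunit of a histone deacetylase complex, had 5, 5 and 4 against 37, 28 and 19. The siNC libraries differed among themselves in these genes, with replicate 1 the highest: Resf1, a retroelement silencing factor gene, had 34, 7 and 6 there and 2, 1 and 2 in tumor. Slc25a18, a mitochondrial glutamate carrier gene outside that window, was at 0 in every tumor library and at 7, 5 and 5 in siNC.

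The largest falls in the line included these genes. Grin2b, which encodes an NMDA receptor subunit, had 14, 13 and 13 regions in tumor and 4, 1 and 0 in siNC. Prmt8, a brain arginine methyltransferase gene, had 11, 11 and 11 against 1, 1 and 1, a log2 change of -2.58 (SE 0.22). Cadps2, a vesicle release gene, had 14, 13 and 10 against 2, 1 and 1. The GABA transporter gene Slc6a11 had 8, 11 and 9 against 4, 0 and 2, and the chloride channel gene Ano2 8, 6 and 4 against 1, 0 and 0. Eps8, an actin regulator gene, had 8, 7 and 6 against 1, 1 and 0, Tafa1 11, 10 and 7 against 2, 1 and 1, and the Ras-like gene Rerg 12, 10 and 7 against 3, 3 and 0. Of 22 synapse, adhesion and channel genes tested, 8 rose and 6 fell, where 28.4% and 12.9% of the tested genes on chromosome 6 did. Cntnap2 fell to 9, 11 and 11 regions in siNC, and the calcium channel gene Cacna1c had 36, 39 and 36 in tumor and 88, 66 and 58 in siNC. Among the granule group, Atoh1 rose to 18, 18 and 17 regions in siNC (log2 change 0.46, adjusted p = 0.0129) and Ccnd2 fell, from 17, 17 and 18 to 8, 8 and 8 (-1.03, adjusted p = 0.000183).

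The knockdowns left the chromosome's share within the spread between libraries. The log2 ratio differed from siNC by 0.057 in siNfia (SE 0.039, adjusted p = 0.548) and by -0.073 in siNfib (SE 0.039, adjusted p = 0.277), and none of the 19 autosomes passed (0%). The siNfib value was positive with the 50000 highest summits (0.027), with whole lists (0.062) and with signal strength as a covariate (0.040). Both values depended on siNC libraries. Without siNC replicate 1 the siNfia value was 0.15 (adjusted p = 3.47e-07). Without siNC replicate 3 the siNfib value was -0.15 (adjusted p = 0.000241) and the siNfia value -0.023. Such p-values rest on a spread pooled over the autosomes and not on that of chromosome 6 alone. In the fit of 9 libraries the SE was 0.039 for each of the 19 autosomes. The siNC shares of chromosome 6 themselves ran from 7.38% to 9.15%. No gene of 470 on chromosome 6 passed after siNfia with limma-trend, where 0.0761% of all 6567 did; 57 of the 470 (12.1%) had an unadjusted p under 0.05, as did 12.1% of all genes.

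Among regions, 0.785% were gained and 0.438% lost after siNfia, where 0.947% and 0.859% of all were. After siNfib 305 regions (3.20%) were gained and 143 of 9529 were lost, where 3.37% and 2.18% of all were.

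After siNfib 6 genes rose, where 0.868% of all did, and 3 fell, where 0.822% did. Nanog, a pluripotency factor gene, had 2, 2 and 1 regions in siNC and 6, 6 and 6 in siNfib, a log2 change of 1.42 (SE 0.22, adjusted p = 0.0287). Akr1d1, a steroid reductase gene, had 2, 2 and 2 against 5, 6 and 5, and Scrn1 4, 3 and 3 against 7, 8 and 7. The forkhead gene Foxi3 and Grcc10 also rose. Malsu1, Gxylt2 and Apold1 fell, Malsu1 from 6, 6 and 6 to 3, 4 and 4. Grcc10 and Apold1 each differed by 1 region, with equal counts in all 3 libraries of a group, and Apold1 changed sign with whole lists, at 0.098. None of the 9 calls remained without any 1 of the siNfib libraries, with whole lists, or with signal strength as a covariate.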

How the data were processed

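Omni-ATAC libraries of 21 samples in 7 groups of 3 were available as summit lists. Per the submitters' processing notes, the authors used Bowtie2, Picard and MACS2 with mm10; versions and settings are not given in the sources used here. The deposited value of each summit is a −log10 of a p or q value, which of them is not stated. Read depth is unknown, so the scores of summits were ranked within a library and not compared between libraries. The exception is the score at rank 100000, which was set side by side. Its log2 was the covariate called signal strength. The 100000 highest summits of each library were kept, with ties at the cutoff broken by a seeded shuffle. Counts of kept summits were taken per autosome, per window of 5 Mb and, as occupied 500 bp regions, per RefSeq gene (GRCm38.p6). Differences were tested with limma 3.58.1 in R 4.3.3, with Benjamini-Hochberg adjustment over all features tested. Window and gene counts entered as log2 values with 1 added. Chromosome shares entered as log2 ratios with nothing added, and mean site percentiles entered untransformed. Windows had a mean of at least 20 summits and genes of at least 3 regions. Primary stages were fitted on 9 libraries, knockdowns on 9, and cell line against tumor on all 21. Named genes are the 8 largest changes in each direction per comparison at an adjusted p under 0.05, and named windows the 3 largest, with members of gene lists added; some genes are not reported here. Scripts were tested on simulated data, and used Python 3.11.15, numpy 2.4.6, pandas 2.3.3 and matplotlib 3.10.9. Alternatives were list length, filters, covariates, fits and left-out libraries. Members, gene lists and tests were chosen with earlier results of these data known.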

Additional observations from a re-analysis of the deposited data

How the results depend on the processing

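Counts here are of windows or genes on chromosome 6 that passed the test. With the 50000 highest summits, the siNfia share against siNC differed by 0.052 (adjusted p = 0.0119). Windows between hyperplasia and GNP numbered 9 in the analysis reported, 5 with the 50000 highest summits, 0 with whole lists, 0 in a fit of 12 libraries that added untreated VDR to the primary ones and 2 with signal strength as a covariate. Between tumor and hyperplasia they numbered 30, against 0 with whole lists and 18 with 12 libraries. Between tumor and GNP they numbered 30, against 9 with whole lists, and between siNC and tumor 15 with whole lists and 14 with the covariate, against 24. Whole lists differ in length by construction. Genes between hyperplasia and GNP numbered 50, against 31 with the 50000 highest summits, 0 with whole lists, 9 with 12 libraries and 5 with the covariate. Between tumor and hyperplasia they numbered 29, against 0 with whole lists, 2 centred on their own chromosome, 0 with 12 libraries and 10 with the covariate. Between tumor and GNP they numbered 82, against 6, 36, 38 and 38 in the same order of settings. After siNfia there were none, against 2 with the 50000 highest summits and 5 with a minimum of 1 region; after siNfib there were 9, against 0 with whole lists and 0 with the covariate. Between siNC and tumor there were 192, against 111 with the 50000 highest summits, 301 with whole lists and 121 with the covariate. With the replicate number as a block, genes numbered 28, 7 and 49 in the 3 stage comparisons and 0 after siNfib. Apart from fits that left out 1 library, no other count moved by over 1.5 times and no other share changed its call. Leaving out 1 library did change calls, as given above for the knockdown shares, the next 50000 summits and the exact test over the stages. Deviations of same-numbered libraries had correlations from -0.0508 to 0.0789, and those of differently numbered ones from -0.088 to 0.0509. These small values do not settle whether the numbers pair the samples. With whole lists 6 single genes changed sign: C2cd5 at -0.047 and Lmntd1 at 0.0041 between hyperplasia and GNP, Lhfpl4 at -0.057 and Gpr37 at -0.074 between tumor and hyperplasia, Cav1 at -0.11 between tumor and GNP, and Apold1 at 0.098 after siNfib. Leaving out 1 library at a time gave 21 to 35, 13 to 31 and 41 to 68 genes in the stage comparisons, 0 to 12 after siNfib and 153 to 183 between siNC and tumor. It gave shares of -0.023 to 0.15 after siNfia and -0.15 to 0.016 after siNfib, 0.22 to 0.42 for the next 50000 summits between tumor and hyperplasia, and exact p of 0.00357 to 0.00714 over the stages. The share rose between tumor and GNP under each alternative run, from 0.35 with 1 summit per peak to 0.53 with the 50000 highest summits.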
